A study of Magallana hongkongensis with 2 samples.

Results

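The unigenes described here carry the names of receptors for neuropeptides and classical neurotransmitters, of the peptides themselves, and of 1 receptor scaffold. A unigene is a transcript assembled from short reads. They were chosen by words in the description. A unigene entered if its deposited best protein match contained any of 12 words. Among these were FMRFamide, neuropeptide, acetylcholine receptor, glutamate receptor and 5-hydroxytryptamine (serotonin). The words found 151 of the 21226 unigenes listed in at least 1 library, under 63 different descriptions. No expression value entered this rule, but the words were chosen with earlier results of these data known. The match was a protein of the Pacific oyster Crassostrea gigas for 145 of them, of the sea hare Aplysia californica for 3, of the acorn worm Saccoglossus kowalevskii for 2 and of the annelid Platynereis dumerilii for 1. A name therefore gives the family of the protein, and the ligand that a unigene's product binds was not measured.

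Polyadenylated RNA was sequenced from the gill of adult wild Hong Kong oysters (Crassostrea hongkongensis, also called Magallana hongkongensis), diploid and of undetermined sex. All oysters were first held for 2 weeks in aerated laboratory seawater and fed 2 algae, Isochrysis galbana and Tetraselmis suecica. The control group then stayed at 23 °C, and the heat shock group spent 1 h at 37 °C before going back to 23 °C; when they were sampled after that is not stated in the labels. There is 1 library per group, made for heat shock from the mixed gills of 10 oysters, and for control from a number of oysters that the labels do not state.

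Neurons signal through small molecules (acetylcholine, glutamate, and amines such as serotonin, dopamine and octopamine) and through peptides that are cut from larger precursors and released from vesicles. Their receptors are of 2 kinds: channels that open when the ligand binds, and receptors that act through G proteins. The bivalve gill is a sheet of ciliated filaments whose beating moves water for feeding and breathing, and branchial nerves that release serotonin, which speeds the lateral cilia, and dopamine, which slows them, set that beat in mussels. FMRFamide, first isolated from a clam, acts on molluscan heart and other muscle.

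The libraries held 3925349 reads (labelled control) and 4173215 reads (labelled heat shock) over 20824 and 20751 listed unigenes. With 1 library per group nothing was tested between conditions. For each unigene the ratio of its share of reads in the 2 libraries comes with a 95% interval, exact and binomial, conditional on the sum of both counts (Clopper-Pearson). Unless stated, the ratio is the library labelled heat shock over the library labelled control, both scaled to their totals, and pairs of values stand in the order control label, heat shock label. PCR copies are not independent molecules and pools of oysters differ, so the interval covers counting error only and compares these 2 libraries. A unigene with at least 20 reads over both libraries entered the comparison, and it was called higher or lower where the ratio was at least 2 in either direction and the interval excluded 1. On total-count scaling the median log2 ratio of all 17364 such unigenes was 0.17; on the TMM scale of edgeR, which sets the bulk of unigenes equal, it was 0.00, and a ratio of 1.12 against the totals corresponds to 1. Transcripts of heat shock proteins went against the labels: over 182 such unigenes, 158 of them with 20 or more reads, reads numbered 269730 and 35740, which is 8.02-fold higher (7.94 to 8.11) in the library labelled control. A few very abundant unigenes carry that sum, such as heat shock protein 90 (Unigene0015010) with 54239 and 3478 reads: of the 158, 36 were called lower under the heat shock label, 5 higher and 117 neither, and the median log2 ratio was -0.07. Libraries are therefore named by their labels throughout, and no direction below is assigned to heat.

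The receptor and peptide unigenes together took a small and similar part of both libraries. They held 10388 and 11574 reads, or 0.265% of the total (Clopper-Pearson interval 0.260 to 0.270) under the control label and 0.277% (0.272 to 0.282) under the heat shock label. The ratio of the sums was 1.05 (1.02 to 1.08) against the totals and 0.935 (0.911 to 0.960) on the TMM scale, so its direction depended on the scaling. Of the 151 unigenes, 103 had at least 20 reads. The median of all 151 was 48 reads over both libraries, against 97 for all unigenes, at a median length of 1086 bases (range 201 to 9057) against 1102. Reads covered a median of 52.1% and 54.7% of their length.

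Levels between unigenes are compared as RPKM, which divides the reads by length and by library total. The median RPKM of the 103, averaged over both libraries, was 10.0, against 13.9 for all unigenes with 20 reads, and 36 of the 103 lay above that value. The highest single unigene, an FMRFamide receptor, averaged 68.7 RPKM, a level that 8.87% of all unigenes with 20 reads exceeded. Above 50 RPKM lay 4 unigenes: this FMRFamide receptor, a metabotropic glutamate receptor, a serotonin receptor and a cholecystokinin receptor. Between 20 and 50 RPKM lay 22.

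**Figure D1:**
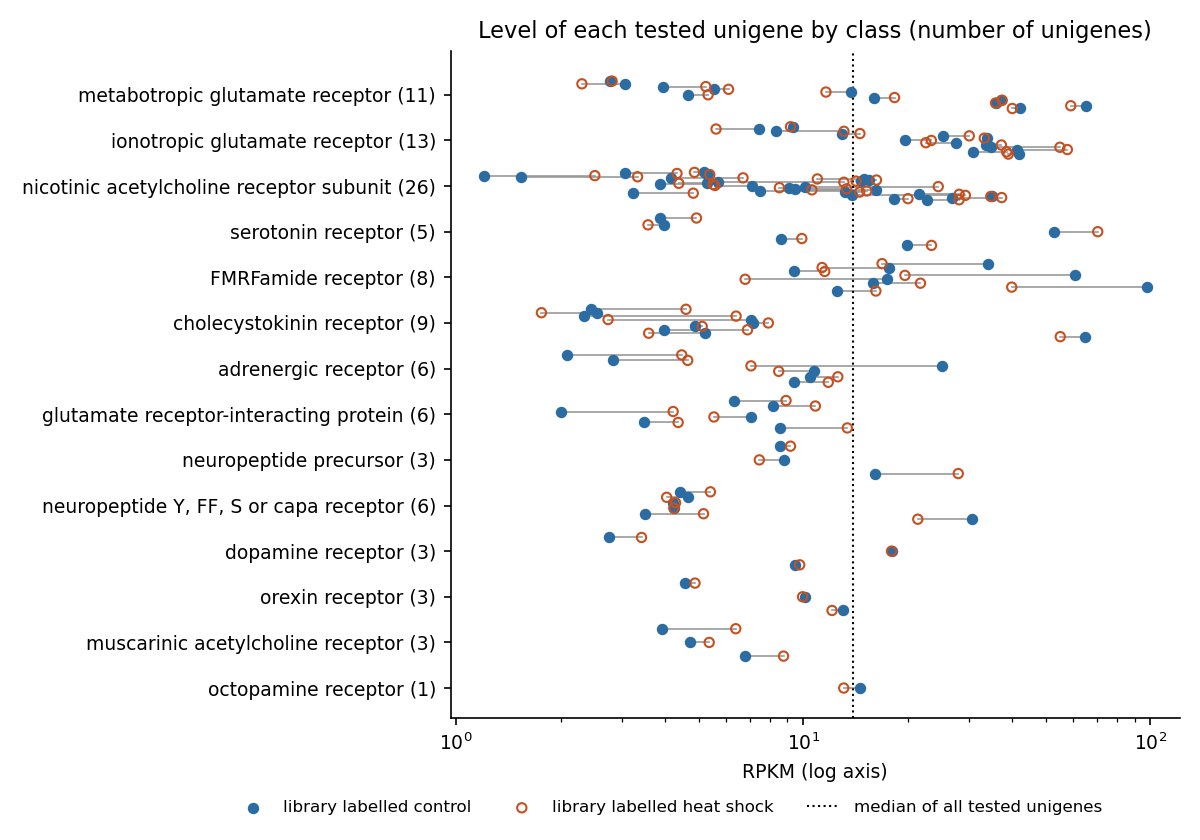
Level of each of the 103 unigenes with at least 20 reads, by class, as RPKM on a log axis; filled circles are the library labelled control, open circles the library labelled heat shock, and a line joins the 2 values of a unigene. The dotted line is the median of all unigenes with 20 reads (13.9 RPKM); most ionotropic glutamate receptors lie right of the line, and the neuropeptide Y, FF, S and capa receptors lie left of the line except 1.

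Annotation in the deposited files ran with the names. Of the 151 unigenes, 56 (37.1%) carried the KEGG pathway neuroactive ligand-receptor interaction, against 146 of all 21226 (0.688%). Nicotinic acetylcholine receptor subunits gave 18 of the 56, metabotropic glutamate receptors 7 and ionotropic glutamate receptors 6, while none of the FMRFamide receptors carried the term. The pathway and the description both come from sequence matches, so they are not independent.

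Of the 103 unigenes, 7 (6.80%) were called higher and 6 (5.83%) lower under the heat shock label, and 90 were neither. Over all 17364 unigenes with 20 reads the same rule called 3.97% higher, 3.25% lower and 7.22% in either direction. Small counts cross the 2-fold bound more easily, so the shares are also given by read number. Among the 56 receptor and peptide unigenes with 20 to 99 reads, 5 (8.93%) were called higher and 3 (5.36%) lower, where 7.20% and 3.67% of all unigenes in that range were called (10.9% in either direction). Among the 47 with 100 or more reads, 2 (4.26%) were higher and 3 (6.38%) lower, against 1.87% and 2.97% (4.84% in either direction). These shares rest on 2 to 7 unigenes each and are not read as a difference from the background. The median log2 ratio was 0.14 beside 0.17 for all unigenes, and on the TMM scale it was -0.03 beside 0.00. On that scale 3 of the 103 were called higher and 6 lower, and of all unigenes 2.34% and 4.37% (6.70% in either direction). A ratio above 1 was found for 64 of the 103 (62.1%), against 66.1% of all, and 49 lay between 0.8 and 1.25.

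**Figure D2:**
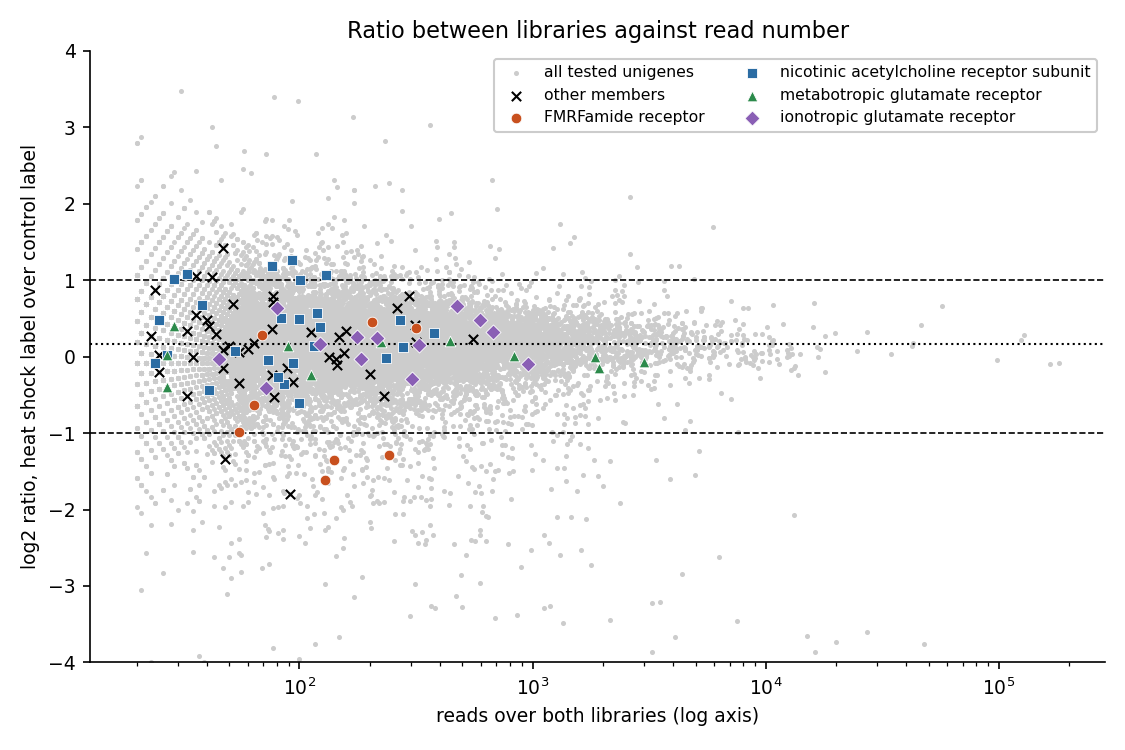
Log2 ratio between the libraries (label heat shock over label control) against the reads over both libraries, log axis, for all unigenes with at least 20 reads in grey and for the receptor and peptide unigenes in colour for 4 classes and as crosses for the others; dashed lines mark the 2-fold bounds and the dotted line the median of all (0.17). The marked points lie within the grey cloud, 4 FMRFamide receptors along or below the lower bound, and the scatter narrows with read number; 23 grey points beyond 4 on the log2 axis are not drawn.

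How small a difference could be seen depended on the reads. A unigene with 20 reads over both libraries needed a ratio of 3.76 for its interval to lie above 1, one with 50 reads 2.00, one with 100 reads 1.54 and one with 1000 reads 1.14. Below the minimum lay 48 of the 151, with 184 and 178 reads together, at most 19 reads each over both. With the same ratio and interval but no minimum, 2 of these 48 would be called lower and none higher: the FMRFamide receptor-like Unigene0006240 with 13 and 4 reads (0.289, 0.0687 to 0.937) and the alpha-6 nicotinic subunit Unigene0023403 with 8 and 1 (0.118, 0.00265 to 0.877). For the rest no difference was detectable at this depth. Among the 48, 4 had no read under the control label and 10 none under the heat shock label, and no count of these 48 in either library was above 13. With no read counted, up to 3 reads remain possible, or 0.764 and 0.719 CPM (reads scaled to library totals of 1e6).

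Peptide precursors were few. The FMRFamide precursor (Unigene0018116, 1646 bases) encodes the peptide family that acts on molluscan muscle. It had 104 and 192 reads, or 16.1 and 28.0 RPKM. The ratio was 1.74 (1.36 to 2.23), short of the 2-fold bound but with an interval above 1, also on the TMM scale (1.55, 1.21 to 1.99). Myomodulin neuropeptide 2 (Unigene0021205), whose peptides modulate muscle contraction in the sea hare, had 40 and 36 reads. Enterin (Unigene0011161), named for a family of gut peptides of the sea hare, had 28 and 32. Neither interval excluded 1 (0.524 to 1.36 and 0.627 to 1.85). A second enterin unigene had 2 reads in each library. The allatostatin B precursor (Unigene0027493), of the family known as myoinhibiting peptides, had 1 read, under the control label. Summed, the 5 precursors had 175 and 262 reads, a ratio of 1.41 (1.16 to 1.72), of which the FMRFamide precursor gave most.

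FMRFamide receptors, G protein-coupled receptors for that peptide family in insects, gave 4 of the 6 lower calls. Of the 14 unigenes with the name, 8 had at least 20 reads, 4 of these (50%) were called lower under the heat shock label and none higher, where 3.25% of all unigenes with 20 reads were called lower (3.67% at 20 to 99 reads and 2.97% at 100 or more). Unigene0002210 had 168 and 73 reads, or 97.5 and 39.8 RPKM, which is 2.45-fold higher (1.85 to 3.27) in the library labelled control. Unigene0002212 had 96 and 33 reads, or 60.7 and 19.6 RPKM, a 3.09-fold difference (2.06 to 4.74) in the same direction. These were the most abundant of the class under the control label, and the first of them was so under both labels.

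Unigene0019146 had 99 and 41 reads, or 17.5 and 6.80 RPKM, and was 2.57-fold higher (1.77 to 3.79) in the library labelled control. Unigene0031119, only 270 bases long, had 36 and 19 reads, or 34.0 and 16.9 RPKM, and lay just past the bound at 2.01-fold (1.13 to 3.72). These 2 unigenes and the pair before were also called lower on the TMM scale. Of the other 4, 3 had a ratio above 1 and 1 a ratio below 1. Unigene0031968 had 133 and 183 reads (ratio 1.29, 1.03 to 1.63), and Unigene0019828 had 83 and 121 (1.37, 1.03 to 1.84); both intervals lay above 1 against the totals and included 1 on the TMM scale. Unigene0024794 had 30 and 39 reads (1.22, 0.740 to 2.04). Unigene0002209 had 38 and 26, 1.55-fold higher in the library labelled control with an interval that included 1 (0.919 to 2.67).

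The median log2 ratio of the 8 was -0.81, beside 0.17 for all unigenes. Summed over the 14, reads were 710 and 546, or 1.38-fold higher (1.23 to 1.55) in the library labelled control. This sum leaned on Unigene0002209, Unigene0002210 and Unigene0002212, which are short (403 to 550 bases) and have nearly consecutive numbers, so they may be pieces or variants of 1 gene; whether they are was not tested. Together they had 302 and 132 reads, 2.43-fold higher (1.98 to 3.01) in the library labelled control. Without them the class had 408 and 414 reads, a ratio of 0.954 (0.830 to 1.10), with 2 of 5 unigenes called lower. The 6 FMRFamide receptor unigenes under 20 reads had 1 to 13 reads each under the control label and 0 to 6 under the heat shock label; 3 of them had no read under the heat shock label. The RNA comes from whole gill, in which fewer cells of a type and less RNA per cell cannot be told apart. Neuron marker unigenes (28 with 20 reads) had a summed ratio of 1.06 (1.02 to 1.09), 0.942 on the TMM scale, with 1 called lower and none higher. A single unigene, neurexin-4, gave 1903 and 2081 of their 5771 and 6475 reads, and which cells it came from was not tested. Digestive gland markers stood at 141 and 80.3 CPM; their part in the FMRFamide receptor values was not tested. Another 2 unigenes, named as a sodium channel that FMRFamide opens directly in snails, had 1 and 2 reads in all.

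**Figure D3:**
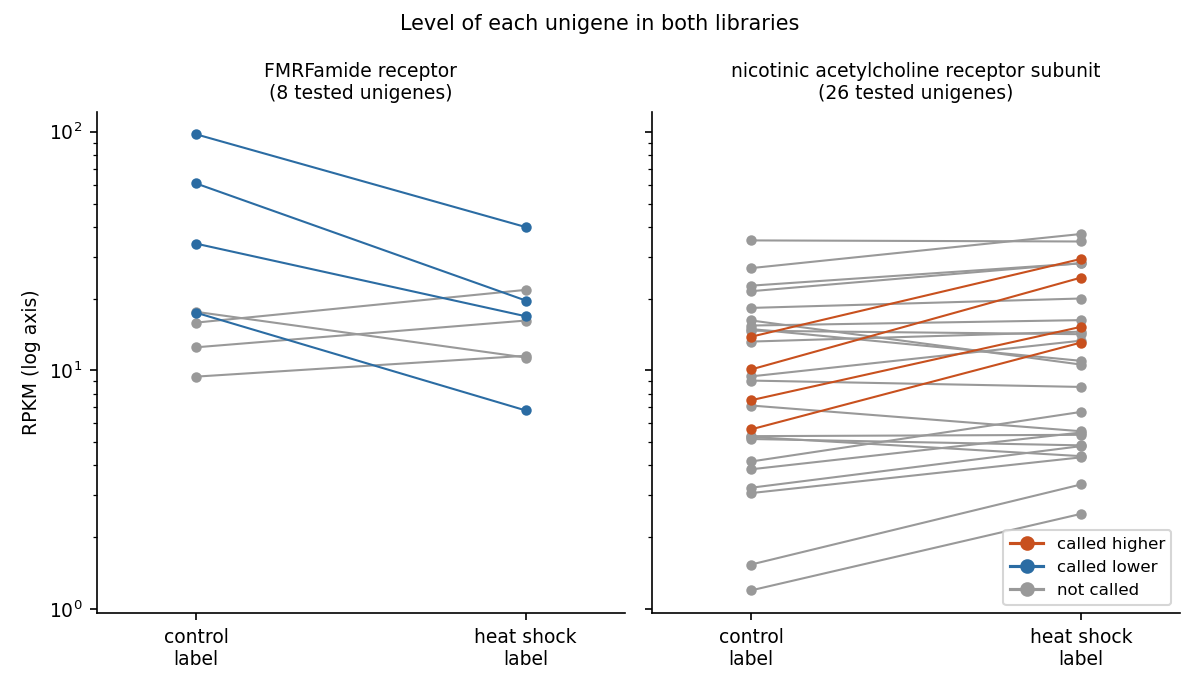
RPKM (log axis) of each unigene with at least 20 reads under the control label and the heat shock label, for the 8 FMRFamide receptors and the 26 nicotinic acetylcholine receptor subunits; a line joins the values of a unigene. Blue lines (4 FMRFamide receptors) were called lower and orange lines (4 subunits) higher, and the most abundant subunit under the control label is grey and nearly flat (35.0 and 34.7 RPKM).

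Nicotinic acetylcholine receptor subunits were the largest family. These subunits join in pentamers to form a channel that acetylcholine opens, and bivalve genomes carry many copies of their genes. Of 47 unigenes, 26 had at least 20 reads, 4 were called higher and none lower, where 3.97% of all unigenes were called higher (7.20% at 20 to 99 reads). The beta-3 subunit Unigene0010567 had 26 and 67 reads, or 10.1 and 24.5 RPKM (ratio 2.42, 1.52 to 3.97). The alpha-10 subunit Unigene0022715, named for a subunit of mammalian hair cells, had 22 and 54 reads, or 5.67 and 13.1 RPKM (2.31, 1.38 to 3.98). Both were also called on the TMM scale, on which 2 of the 26 were higher.

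The delta subunit Unigene0004829, named for a subunit of the vertebrate muscle receptor, had 40 and 90 reads, or 13.8 and 29.3 RPKM (2.12, 1.44 to 3.15). The alpha-2 subunit Unigene0021792 had 32 and 69, or 7.51 and 15.2 RPKM (2.03, 1.32 to 3.19). On the TMM scale their ratios were 1.89 and 1.81, under the 2-fold bound. All 4 had between 22 and 40 reads under the control label. Just outside the rule lay an acr-16 subunit (Unigene0018069) with 10 and 23 reads (2.16, 0.990 to 5.09) and an alpha-6 subunit (Unigene0010320) with 9 and 20 (2.09, 0.910 to 5.21).

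The most abundant subunits differed less. Acetylcholine receptor subunit alpha (Unigene0024480) had 115 and 121 reads, or 35.0 and 34.7 RPKM, a ratio of 0.990 (0.760 to 1.29). The alpha-6 subunit Unigene0022303 had 109 and 161 reads (1.39, 1.08 to 1.79). The non-alpha-2 subunit Unigene0003739 had 163 and 215 (1.24, 1.01 to 1.53), while its neighbour by number with the same description, Unigene0003740, had 59 and 41 and was 1.53-fold higher (1.01 to 2.34) in the library labelled control. Among delta subunits, the next number after Unigene0004829, Unigene0004830, had 13 and 14 reads (1.01, 0.442 to 2.34). That interval includes the ratio of Unigene0004829. A ratio above 1 was found for 18 of the 26 (69.2%). The summed reads were 1267 and 1654, a ratio of 1.23 (1.14 to 1.32) against the totals and 1.10 (1.02 to 1.18) on the TMM scale. Muscle markers, 87 unigenes with 20 reads, had 7 (8.05%) called higher and none lower (5 and 1 on the TMM scale), and a summed ratio of 1.16 (1.04 on the TMM scale); their part in the subunit values was not tested. Reads summed by description gave ratios of 1.27 (1.07 to 1.51) for the 11 alpha-6 unigenes and 1.29 (1.08 to 1.54) for the 7 alpha-10. They gave 1.35 (1.05 to 1.75) for the 6 delta and 1.40 (1.04 to 1.90) for the 4 beta-3 unigenes. Each of these lower limits lay under 1.12, the ratio that is 1 on the TMM scale. The other descriptions with more than 1 unigene had intervals that included 1. These were non-alpha-2 (1.09, 0.923 to 1.28), alpha-7 (1.32, 0.862 to 2.03) and beta-like 1 (1.29, 0.649 to 2.63). The last were alpha-6 partial (0.960, 0.632 to 1.46) and alpha-like 1 (1.25, 0.212 to 8.56). The 21 subunit unigenes under the minimum include 2 with no read under the control label and 5 with none under the heat shock label.

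Muscarinic receptors, the G protein-coupled receptors for acetylcholine, were all named M3. Unigene0020795 had 32 and 44 reads, Unigene0018500 had 29 and 35, and Unigene0020486 had 19 and 33. All 3 ratios were above 1 (1.14 to 1.63), also on the TMM scale, and no interval excluded 1; their sum gave 1.32 (0.980 to 1.78).

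Glutamate receptors held most of the reads. Metabotropic receptors act through G proteins; types 2, 3 and 8 lower cyclic AMP in mammals, and type 5 releases calcium. Their 13 unigenes held 40.8% and 37.7% of the reads of all 151, and none of the 11 with 20 reads was called. The longest unigene, a type 3 receptor of 9057 bases (Unigene0013495), had 1494 and 1512 reads, or 42.0 and 40.0 RPKM, a ratio of 0.952 (0.886 to 1.02). A type 2 receptor (Unigene0014125) had 980 and 942 reads, or 65.2 and 59.0 RPKM, and was 1.11-fold higher (1.01 to 1.21) in the library labelled control. Other type 3 receptors had 900 and 953 reads (Unigene0007883; 0.996, 0.908 to 1.09) and 403 and 431 (Unigene0032902; 1.01, 0.876 to 1.16). The type 5 receptor Unigene0014611 had 199 and 243 reads (1.15, 0.948 to 1.39). The first 3 of these unigenes have the most reads of the 151. The sums of the class, 4235 and 4365, gave 0.969 (0.929 to 1.01), and 0.865 (0.829 to 0.903) on the TMM scale.

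Ionotropic glutamate receptors are channels; kainate types and the AMPA type receptor 4 carry fast excitation in vertebrates. They had the highest median level of any class, with 27.6 RPKM over 13 unigenes with 20 reads, and none was called. Glutamate receptor 4 (Unigene0014873) had 480 and 476 reads (0.933, 0.820 to 1.06). Receptor U1 (Unigene0006904), a kainate-binding subunit first described in the frog Xenopus, had 239 and 355 reads, or 41.3 and 57.6 RPKM (1.40, 1.18 to 1.65). The kainate 2 receptor Unigene0020132 had 176 and 296 reads, or 34.7 and 54.9 RPKM (1.58, 1.31 to 1.92). For these 2 the interval lay above 1 on the TMM scale as well, at ratios of 1.25 and 1.41. A second kainate 2 unigene (Unigene0009334) had 291 and 387 reads (1.25, 1.07 to 1.46; 1.12, 0.956 to 1.30 on the TMM scale). Kainate 2 unigenes numbered 6 and summed to 841 and 1120 reads, a ratio of 1.25 (1.14 to 1.37). The kainate 1 receptor Unigene0018843 pointed the other way, with 162 and 141 reads (0.819, 0.649 to 1.03). The class sum, 1910 and 2317 reads, gave 1.14 (1.07 to 1.21) against the totals and 1.02 (0.958 to 1.08) on the TMM scale.

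Glutamate receptor-interacting protein 1 is no receptor but a scaffold that holds AMPA receptors at synapses in mammals. Its 7 unigenes entered through the words of their description. Unigene0018083 was called higher with 13 and 29 reads, or 2.01 and 4.22 RPKM (2.10, 1.06 to 4.40), though not on the TMM scale (1.87). The most abundant, Unigene0014846, had 99 and 164 reads (1.56, 1.21 to 2.02; 1.39, 1.08 to 1.80 on the TMM scale). Summed reads were 229 and 342, a ratio of 1.40 (1.18 to 1.67), and 1.25 (1.06 to 1.49) on the TMM scale.

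Serotonin receptors were measured in 5 unigenes, all with at least 20 reads, and none was called. Serotonin receptor 4, which raises cyclic AMP in mammals, was among the most abundant of the 151: Unigene0027502, 622 bases, had 129 and 183 reads, or 52.8 and 70.5 RPKM (1.33, 1.06 to 1.68; 1.19, 0.945 to 1.503 on the TMM scale). The 1A-alpha receptor, named for a type that lowers cyclic AMP in mammals, followed with 247 and 309 reads (Unigene0014625). This was 19.9 and 23.4 RPKM, a ratio of 1.18 (0.992 to 1.40). The receptor named type 1 had 142 and 173 reads (Unigene0013958, ratio 1.15, 0.913 to 1.44). Types 2A and 2B were scarce, with 14 and 19 reads (Unigene0023415) and 24 and 23 (Unigene0018596). The class sum, 556 and 707 reads, gave 1.20 (1.07 to 1.34), and 1.07 (0.954 to 1.19) on the TMM scale. Cilia markers, 96 unigenes with 20 reads, had a summed ratio of 1.20 as well (1.18 to 1.21; 1.07 on the TMM scale), at 11964 and 14301 CPM; their part in the serotonin receptor values was not tested.

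Dopamine receptors, the other side of ciliary control in mussels, were nearly equal in both libraries. Dopamine receptor 1 had 74 and 81 reads in Unigene0008229 (1.03, 0.742 to 1.43) and 65 and 69 in Unigene0023489, which is 18.0 RPKM in both (0.998, 0.701 to 1.42). Dopamine receptor 2 (Unigene0017660) had 19 and 25. The octopamine receptor beta-1R (Unigene0024949), a receptor for the invertebrate amine that corresponds to noradrenaline, had 45 and 43 reads (0.899, 0.578 to 1.40). No unigene was named a tyramine receptor.

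Adrenergic receptor names, given to amine receptors related to the vertebrate receptors for noradrenaline, included 1 call in each direction. The alpha-1A receptor Unigene0026147 had 70 and 21 reads, or 25.0 and 7.07 RPKM, and at 3.54-fold higher (2.15 to 6.08) in the library labelled control was the largest difference among the 103. The alpha-2A receptor Unigene0019760 had 11 and 25 reads, or 2.09 and 4.46 RPKM, 2.14-fold the other way with an interval that nearly reached 1 (1.01 to 4.81), and was not called on the TMM scale (1.91). The other alpha-2 names lay between: 51 and 43 reads for the alpha-2Da receptor Unigene0020718 (0.793, 0.516 to 1.21), 68 and 91 reads for Unigene0017262 (1.26, 0.909 to 1.75), 65 and 83 for Unigene0018435 (1.20, 0.858 to 1.69), and 28 and 49 for the alpha-2C receptor Unigene0015490 (1.65, 1.01 to 2.72). The beta-2 and beta-4C names had 6 and 3, and 6 and 9 reads. The sums, 305 and 324 reads, gave 0.999 (0.852 to 1.17).

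Cholecystokinin receptors, which in vertebrates answer a peptide of gut and brain, also held a call in each direction, both small counts. Unigene0020006 had 12 and 35 reads, or 2.33 and 6.40 RPKM, the largest ratio among the 103 toward the library labelled heat shock (2.74, 1.39 to 5.80), and was called on the TMM scale too. Unigene0010449 had 34 and 14 reads, or 7.07 and 2.74 RPKM, and was 2.58-fold higher (1.35 to 5.21) in the library labelled control. The most abundant, Unigene0030358, is 414 bases long and had 105 and 95 reads, or 64.6 and 55.0 RPKM (0.851, 0.638 to 1.13). Unigene0017715 had 27 and 50 reads (1.74, 1.07 to 2.89). Over the 11 unigenes the sums were 309 and 321, a ratio of 0.977 (0.833 to 1.15).

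**Figure D4:**
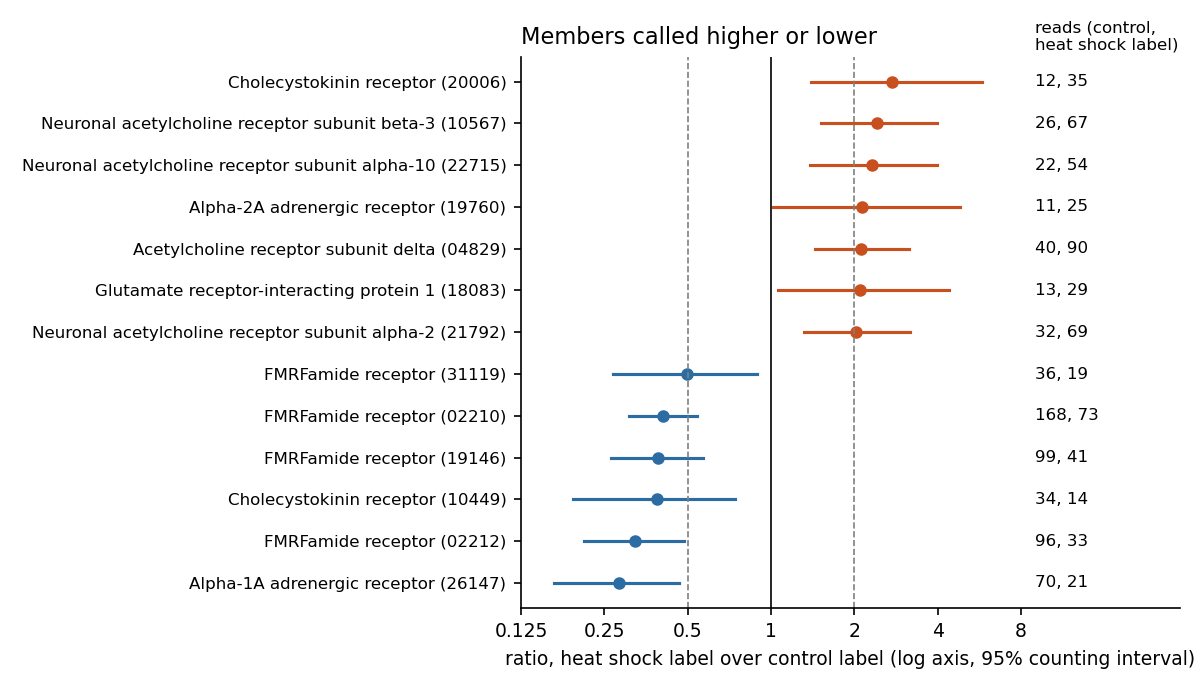
The 13 called unigenes with their ratio (label heat shock over label control, log axis, 95% counting interval) and, at the right, their reads under the control label and the heat shock label; numbers in brackets are the last digits of the unigene name, and dashed lines mark the 2-fold bounds. Blue, called lower, runs from the alpha-1A adrenergic receptor (70 and 21 reads) to the FMRFamide receptor at the bound (36 and 19); orange, called higher, holds 4 nicotinic subunits.

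The remaining peptide receptors held no call. Neuropeptide Y receptor type 1 (Unigene0021587), of the family that regulates feeding in mammals, had 132 and 98 reads, or 30.6 and 21.4 RPKM, 1.43-fold higher (1.09 to 1.88) in the library labelled control. It was the only 1 of the 6 neuropeptide Y, FF and S receptors with 20 reads that lay above the median level of all unigenes. Orexin receptors, named for the wakefulness peptides of mammals, had 73 and 72 reads (Unigene0019256), 70 and 73 (Unigene0017620) and 22 and 25 (Unigene0020617), ratios of 0.928 to 1.07. The class sums gave 0.881 (0.725 to 1.07) for neuropeptide Y, FF, S and capa receptors and 0.968 (0.780 to 1.20) for orexin receptors.

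Receptors need enzymes that make and remove the transmitter and a machinery for release and relay, and 8 lists of such unigenes, set by words in the description, are given here by counts. Of all unigenes with 20 reads, 3.97% were called higher and 3.25% lower (7.20% and 3.67% at 20 to 99 reads). G protein relay had 53 unigenes with 20 reads, none called, a summed ratio of 1.16 (1.13 to 1.19; 1.03 on the TMM scale) and a median log2 ratio of 0.23. Vesicle release had 48, none higher and 2 lower, with a median of 0.01. Its sum was 1.05 against the totals and 0.937 (0.909 to 0.966) on the TMM scale. The 2 lower calls were an unc-13-like protein with 20 and 9 reads (Unigene0027149) and neurexin-1-alpha with 17 and 7 (Unigene0024434). Neuropeptide processing had 14, none called. Its sum gave 1.16 (1.11 to 1.21), and 1.03 (0.991 to 1.08) on the TMM scale, while its median log2 ratio was -0.08. In that list neuroendocrine convertase 1, which cuts peptide precursors, had 1121 and 1531 reads (Unigene0016443, ratio 1.28, 1.19 to 1.39). Proprotein convertase subtilisin/kexin type 5 had 1537 and 2034 (Unigene0013584, ratio 1.24, 1.16 to 1.33). Together these unigenes gave most of the 4150 and 5107 reads of the list. Transmitter uptake and vesicle loading had 48, with 2 higher and 3 lower, and a median of 0.24. Its sum was 1.07 against the totals and 0.955 (0.928 to 0.982) on the TMM scale. Its most abundant lower call was a GABA transporter named ine (Unigene0017734) with 1293 and 538 reads (0.391, 0.353 to 0.433). Another unigene of the same name (Unigene0006748) was called higher with 15 and 37 reads (2.32, 1.24 to 4.55), also on the TMM scale.

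Transmitter synthesis and breakdown had 13, with 2 higher (15.4%) and 1 lower (7.69%). Its summed ratio (1.01) and median log2 ratio (-0.04) pointed in opposite directions against the totals. On the TMM scale they were 0.904 and -0.20. Among all unigenes with 20 to 99 reads, 7.20% were called higher and 3.67% lower. Shares of lists this short rest on 1 or 2 unigenes and are not read as a difference from the background. The higher calls were a glutamate decarboxylase-like protein with 8 and 27 reads (Unigene0026449; 3.17, 1.40 to 8.09) and a cholinesterase with 6 and 21 (Unigene0023355; 3.29, 1.29 to 9.97). The lower call was glutamate decarboxylase 1, which makes GABA, with 27 and 14 reads (Unigene0010804). In the same list tyramine beta-hydroxylase, which makes octopamine in insects, had 3851 and 3990 reads (Unigene0017069; 0.975, 0.932 to 1.02), and a second cholinesterase, of the enzyme family that splits acetylcholine, had 180 and 317 (Unigene0019323; 1.66, 1.38 to 2.00). Other transmitter-gated channels and receptors had 10, with 2 higher and none lower (sum 1.24, 1.11 to 1.38; 1.10, 0.992 to 1.23 on the TMM scale; median 0.40). These were GABA type B subunit 2, with 7 and 29 reads (Unigene0017274; 3.90, 1.67 to 10.5), and glycine receptor alpha-2, with 17 and 37 (Unigene0025943; 2.05, 1.12 to 3.88). Other peptide and amine receptors had 36, of which 1 was higher, the calcitonin receptor with 12 and 30 reads (Unigene0025243; 2.35, 1.17 to 5.04). Voltage-gated channels had 37, with 1 called in each direction and a median of 0.06. Their sum was 1.19 against the totals and 1.06 on the TMM scale. A T-type calcium channel had 24 and 63 reads (Unigene0004025; 2.47, 1.52 to 4.13), and a hydrogen channel 67 and 31 (Unigene0031915; 0.435, 0.275 to 0.676).

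**Figure D5:**
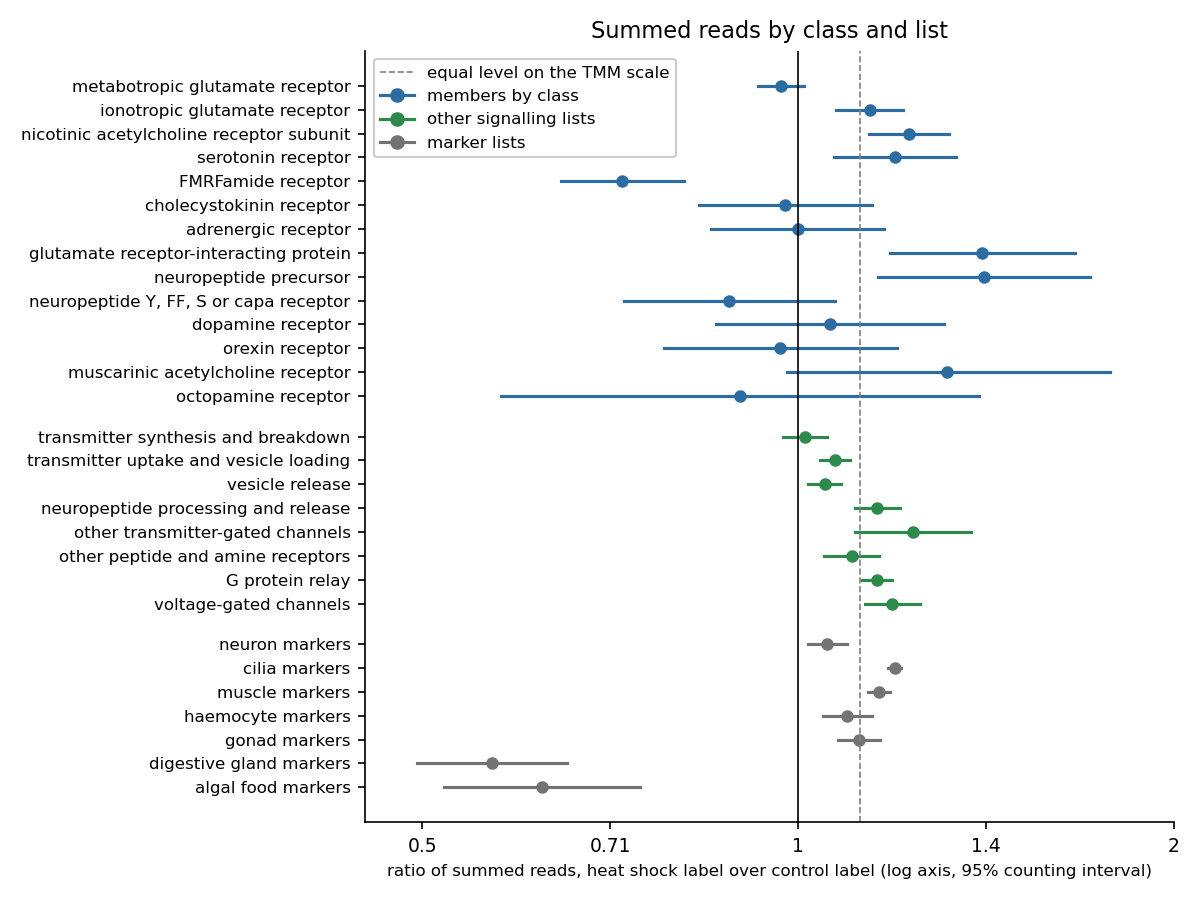
Ratio of summed reads (label heat shock over label control, log axis, 95% counting interval) for each class of receptor and peptide unigenes in blue, for other signalling lists in green and for marker lists in grey; the solid line is equal share of the totals and the dashed line (1.12) equal level on the TMM scale. FMRFamide receptors (0.723) lie left of the other receptor classes, and the digestive gland (0.569) and algal food (0.624) lists lie further left.

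Marker lists were set by words in the description, and which cells their unigenes came from was not tested. Neuron markers summed to 1470 and 1552 CPM, and 3 of their 9 words (synapsin, SNAP-25 and the vesicular acetylcholine transporter) matched no unigene. Neurexin-4 had 1903 and 2081 reads and synaptotagmin-1 329 and 408, and both are counted in the vesicle release list as well. Cilia markers, chosen to stand for the ciliated gill epithelium, were detected with 5 of their 6 words. Muscle markers summed to 4505 and 5229 CPM, haemocyte markers to 881 and 965, and gonad markers to 1235 and 1382. The word hemocyte matched no unigene. Of 11 haemocyte unigenes with 20 reads, 2 (18.2%), both named galectin-4, were called lower, against 3.25% of all unigenes with 20 reads. Another 2 named galectin-4 gave most of the 3458 and 4026 reads of the list and had ratios above 1. They had 1381 and 1564 reads (Unigene0016793, ratio 1.07, 0.990 to 1.15) and 1262 and 1539 (Unigene0014798, ratio 1.15, 1.06 to 1.24). The gonad unigenes that were called or had the highest mean RPKM were all named spermatogenesis-associated proteins. Digestive gland markers summed to a lower share under the heat shock label (0.569, 0.495 to 0.653), with 2 of 4 unigenes called lower (3.25% of all unigenes with 20 reads). Most of their 554 and 335 reads came from 1 unigene, a maltase-glucoamylase (Unigene0006419) with 369 and 169. The algal food list, 3 unigenes all named chlorophyllide a oxygenase, summed to 78.7 and 49.1 CPM, with 2 called lower and 1 not called. Of its 4 words, 3 (photosystem, ribulose bisphosphate carboxylase and light-harvesting) matched no unigene. Whether the 3 unigenes come from algae was not tested.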

How the data were processed

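Per the labels' protocols, gill RNA was extracted with Trizol and sequenced on an Illumina platform. The submitters' processing notes name cutadapt 1.8.1 and CASAVA 1.4 without a role; aligner and assembly are not stated there. Per the file headers, the authors gave for every unigene its length, its uniquely mapped read count, the RPKM, and a coverage in percent, the part of the sequence that reads reached. The deposited counts are not normalized, and their sums equalled the totals in the headers. RPKM as deposited was recomputed from count, length and that total without a difference beyond rounding. Unigenes absent from 1 of the files got a count of 0 there.

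Ratios and exact intervals were computed with scipy 1.17.1, pandas 2.3.3 and numpy 2.4.6 in Python 3.11.15. TMM factors came from edgeR 4.0.16 and size factors from DESeq2 1.42.0 in R 4.3.3; neither tool's test was run, since each group has 1 library, and no p-value was computed. The calling step was tested on simulated data. A prior of 0.5 reads was used for median log2 ratios only. Every called receptor or peptide unigene is named. Set for naming as well were the up to 3 of highest mean RPKM in each class, and from each list up to 4 called and the 2 of highest mean RPKM. Not all of these are given in the text, and other unigenes named were chosen after their values were seen. The unigenes, words and lists were chosen with earlier results of these data known, and words that caught unrelated descriptions were removed from the lists after the matches were seen. The files used here hold no sequences of the unigenes, so none are shown.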

Additional observations from a re-analysis of the deposited data

How the results depend on the processing

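Depth limits most of these values: 56 of the 103 unigenes had under 100 reads, and counting intervals do not cover differences between pools of oysters. No replicate could be left out and no paired analysis was possible because each group has 1 library. Against the 13 calls (7 higher, 6 lower), a minimum of 100 reads left 5 (2 and 3), a ratio of at least 4 left 0 (0 and 0), an interval with 0.1% error left 8 (4 and 4), and reads summed by description, an alternative chosen after seeing the data, left 3 of 52 descriptions (2 and 1). A ratio of at least 1.5 gave 12 higher and 7 lower, and no minimum 7 higher and 8 lower of 151. TMM factors and DESeq2's median of ratios each gave 3 higher and 6 lower; all 6 lower calls remained under both, and 4 of the 7 higher calls were lost (Unigene0004829, Unigene0018083, Unigene0019760 and Unigene0021792), at ratios of 1.81 to 1.91 with TMM. Over all unigenes TMM moved the share of calls that were higher from 55.0% to 34.9% (406 higher, 758 lower; 690 and 564 against the totals). The median log2 ratio of the 103, 0.14 as reported, turned to -0.026 with TMM and -0.029 with median of ratios, and was 0.072 with no minimum, 0.19 with a minimum of 100 reads, 0.12 with a prior of 5 reads and 0.11 by description. The ratio of summed reads, 1.05 as reported, turned to 0.935 with TMM and 0.933 with median of ratios. Leaving out unigenes that name no receptor gave 6 higher and 6 lower of 94.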

Other observations

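Of the 87 muscle marker unigenes with at least 20 reads, 7 (8.05%) were called higher under the heat shock label and none lower, where 3.97% of all unigenes were called higher (7.20% at 20 to 99 reads); on the TMM scale 5 were higher and 1 lower. Titin, the elastic filament of striated muscle, had 24 and 62 reads in Unigene0000909 (ratio 2.43, 1.49 to 4.07), and striated muscle myosin heavy chain, the motor of the thick filament, had 15 and 50 in Unigene0030820 (3.14, 1.73 to 6.01). The most abundant muscle unigenes did not reach 2-fold: paramyosin had 478 and 608 reads (Unigene0003737; 1.20, 1.06 to 1.35) and tropomyosin 347 and 426 (Unigene0031078; 1.15, 1.00 to 1.33).

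Of the 4 digestive gland unigenes with at least 20 reads, 2 were called lower under the heat shock label, and of the 3 in the algal list, 2. Of all unigenes with 20 reads, 3.25% were called lower, and lists this short are not read as a difference from that share. The other 9 of the 13 digestive gland unigenes had under 20 reads. Maltase-glucoamylase, which splits starch products to glucose, had 369 and 169 reads in Unigene0006419 (0.431, 0.357 to 0.518) and 37 and 12 in Unigene0021764 (0.305, 0.145 to 0.598). The other 2 were not called: maltase-glucoamylase Unigene0022574 had 87 and 73 reads (0.789, 0.570 to 1.09), and endoglucanase E-4, of a family that cuts cellulose, had 36 and 52 (Unigene0011646; 1.36, 0.871 to 2.14). Chlorophyllide a oxygenase, an enzyme of chlorophyll synthesis, had 123 and 37 reads in Unigene0018890 (0.283, 0.190 to 0.412) and 53 and 17 in Unigene0026290 (0.302, 0.164 to 0.529), while the other unigene of that name, Unigene0016675, had 133 and 151.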
